A study of Ovis aries with 2 samples.

Results

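KRT6A, SHISA2, GPX2 and PDZRN3 are 4 of the 18161 genes measured in single cells of lamb skin. They were chosen by their measured values in these same libraries, as KRT6A and genes that accompany it, so that their shared high level in one group of cells is a description and no independent finding. All 4 have a row in the table and all 4 had over 100 UMIs (unique molecular identifiers, each standing for 1 captured RNA molecule) in each library, so that none was lost to a filter on low values. The skin came from the body side of Hu sheep lambs at 3 days of age. One library was made from straight wool lambs and the other from curly wool lambs, each from the pooled skin of 3 animals, and both held a mixture of cells from microdissected hair follicles and cells from whole skin. There was thus 1 library per wool type, no test between wool types could be made, and the intervals given here are 95% intervals that cover counting error only.

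The companion layer is a single sheet of flat cells between the inner and the outer root sheath of the hair follicle. It is known for type II keratins of the KRT6 and KRT75 kind, and it moves upward with the inner root sheath as the fibre grows. KRT6A is a type II keratin that pairs with type I keratins such as KRT16 and KRT17 and is also known from activated, wounded epidermis. SHISA2 belongs to a family of membrane proteins that hold FGF and Frizzled receptors back in the endoplasmic reticulum. GPX2 is a glutathione peroxidase, which reduces hydroperoxides, and it is best known from the lining of the gut. PDZRN3 is a ubiquitin ligase with PDZ domains, known for its action on the muscle receptor kinase MUSK and on Dishevelled.

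The straight library held 6452 cells with a median of 7374 UMIs, and the curly library held 7585 cells with a median of 7495 UMIs. The libraries shared 70 cell barcodes. Cells were grouped into 23 clusters with the 4 genes left out of the genes used for clustering, and levels are given as CPM, the UMIs of a gene per 1000000 UMIs summed over the cells of a cluster. Clusters 10 and 18 had at least 4 times the KRT6A level of their whole library in both libraries, and these are called KRT6A-rich. Cluster 18, the nearest inside this limit, was at 9.56 times in straight and 7.06 times in curly skin, and cluster 2, the nearest outside, was at 2.02 and 0.816 times. KRT75, KRT6B and KRT16, which would define a companion layer, were not analysed here because no row carries these names. Keratin genes that carry only LOC identifiers may include them, which could not be settled here. Of the listed companion layer markers that could be read, KRT17 and GJB6 were seen in at least 10% of the cells of both clusters and GJB2 was not, so neither cluster was given a cell type name.

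Both KRT6A-rich clusters had high levels of keratinocyte genes. After KRT6A, cluster 10 was led by LOC101108147, FABP4, GPX2, SHISA2, MAL, LOC101112509, CXCL12, PDZRN3 and CRABP2. It also had the highest summed level of the basal epidermis markers of any cluster, at 49966 CPM in the straight library and 54087 CPM in the curly one. Nearly all of this sum came from KRT14, with 30844 and 34890 CPM, and KRT5, with 19033 and 19114 CPM. KRT5 itself was highest in cluster 12. Cluster 18 was led by LOC101105214, LOC101112555, the kallikrein proteases KLK6, KLK10 and KLK7, and CDSN, the corneodesmosome protein corneodesmosin. Markers of cells other than keratinocytes were low in both. In cluster 10 the endothelial markers summed to 6.33 and 2.6 CPM and the immune markers to 6.86 and 12.3 CPM, against 2244 and 2053 CPM in the endothelial-like cluster and 10247 and 7069 CPM in the immune-like cluster. In cluster 18 the endothelial markers were at 0 in both libraries and the immune markers at 13.8 and 1.79 CPM. The contractile markers summed to 222 and 134 CPM in cluster 10 and to 806 and 287 CPM in cluster 18, and the dermal fibroblast markers to 204 CPM or less. The hair matrix markers reached 62.3% and 67.9% of the level of their highest cluster in cluster 18 and 9.32% and 8.12% in cluster 10. Only 2 of these 6 markers were seen in at least 10% of the cells of cluster 18. The cycling markers, which share TOP2A and MKI67 with that list, summed to 18.4 and 8.97 CPM in cluster 18. That is 1.71% and 0.907% of their highest cluster. The part of these markers in the results was not tested. The suprabasal epidermis markers summed to 788 and 1343 CPM in cluster 10 and to 2835 and 6243 CPM in cluster 18, which is 9.83% or less of the level in suprabasal epidermis-like cluster 4. Other keratinocyte lists were high in cluster 18 as well. There the outer root sheath markers reached 79.8% and 48.7% of their highest cluster. The infundibulum and sebaceous duct markers reached 70.0% and 29.9%, and the basal epidermis markers 45.3% and 74.1%. The first 2 of these lists both include KRT17. Cluster 10 held 169 straight and 357 curly cells with median depths of 10207 and 19056 UMIs. Cluster 18 held 40 straight and 195 curly cells with median depths of 6806 and 3629 UMIs, so its straight values rest on few cells.

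KRT6A, the keratin of the group, was highest in cluster 10 and next in cluster 18 in both libraries. Cluster 10 had 6263 CPM in straight skin (interval 6150 to 6376) and 8170 CPM in curly skin (8101 to 8240). Cluster 18 had 3314 CPM (3145 to 3490) and 6925 CPM (6817 to 7035). All other clusters together had 122 CPM in the straight and 107 CPM in the curly library. The KRT6A-rich clusters thus stood 46.8 times above the rest in straight and 73.5 times above it in curly skin, which is the property that chose them. In straight skin the order went on with cluster 2 at 702 CPM and cluster 12 at 679 CPM, whose intervals overlapped, and then cluster 5 at 513 CPM and cluster 11 at 149 CPM, which stood apart. In curly skin cluster 2 had 800.5 CPM, cluster 12 had 407 CPM, immune-like cluster 13 had 273 CPM and cluster 5 had 230.4 CPM. Cluster 2 holds shallow cells, with medians of 671.5 and 760.5 UMIs, that were led by the globin gene HBB. Cluster 12 is unnamed and was led by PTHLH and SFTPC, and cluster 5 is infundibulum and sebaceous duct-like by KRT79 and CST6. The lowest cluster had 17.4 CPM of KRT6A in the straight and 41.0 CPM in the curly library.

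**Figure D1:**
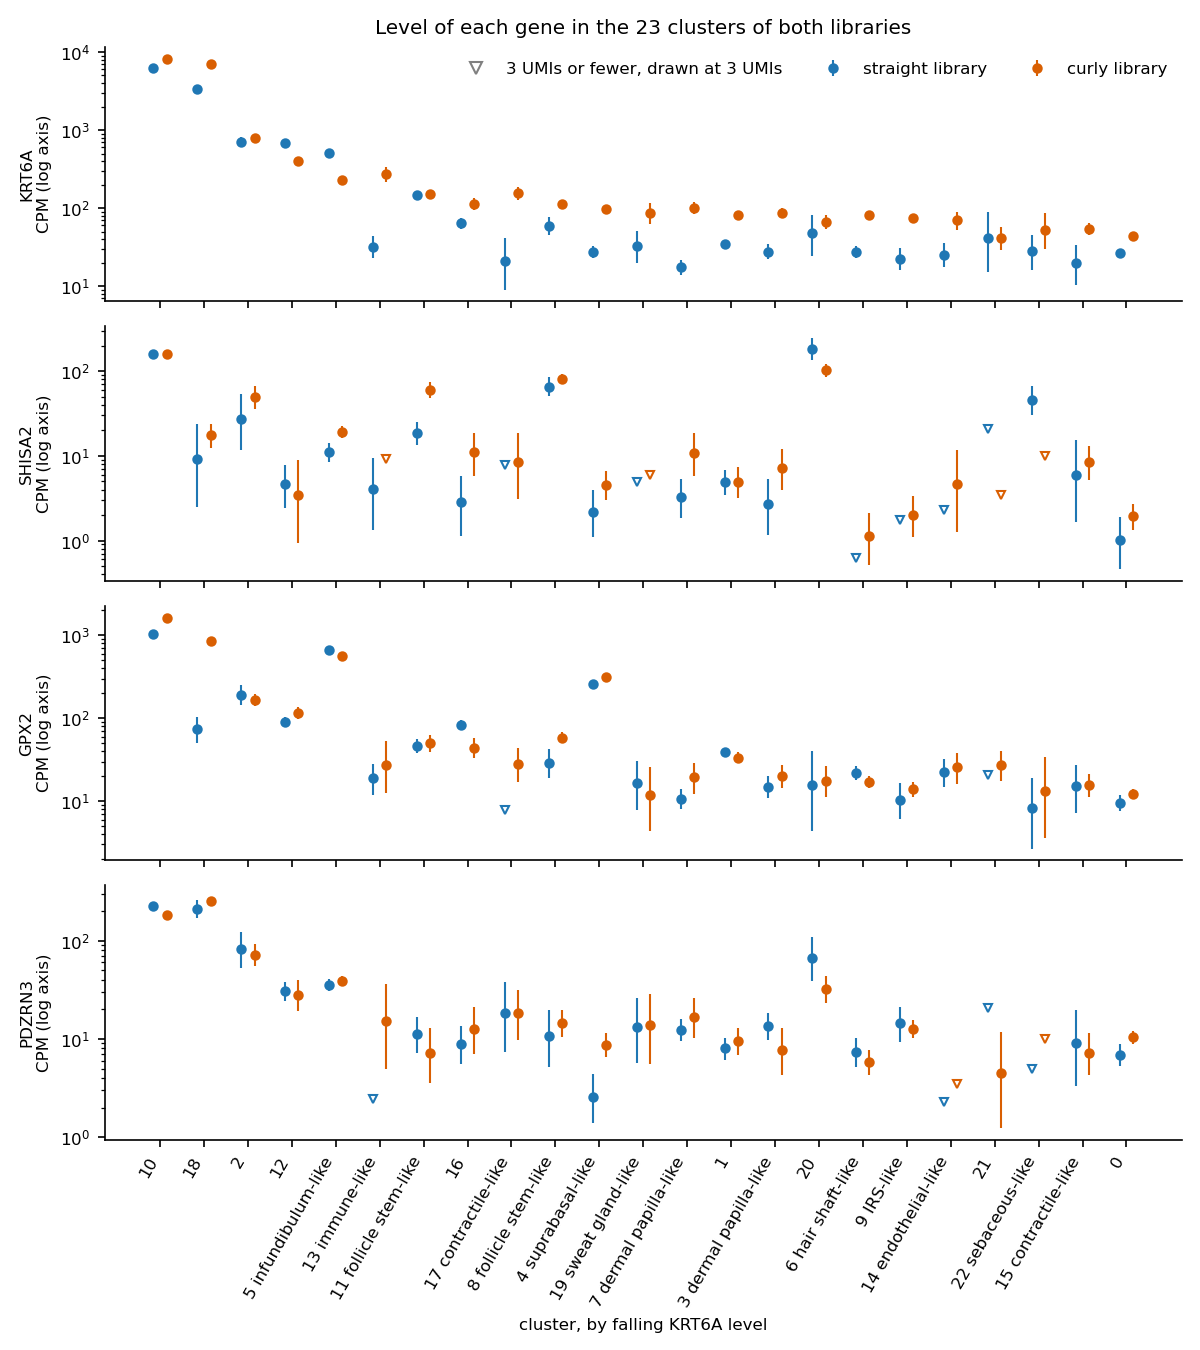
CPM of KRT6A, SHISA2, GPX2 and PDZRN3 (log axes) in each of the 23 clusters, ordered along the horizontal axis by falling mean KRT6A level, for the straight and the curly library; points are levels of summed UMIs, bars are 95% Poisson intervals and open triangles mark clusters with 3 UMIs or fewer. KRT6A and PDZRN3 are highest in clusters 10 and 18, GPX2 is also high in clusters 5 and 4, and SHISA2 is high in clusters 10, 20 and 8 but not in 18.

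KRT6A varied widely between the cells of these clusters. The cluster 10 cells of straight skin had a lower quartile of 468 CPM, a median of 5754 CPM and an upper quartile of 12034 CPM, and 86.4% of the cells had a KRT6A UMI. In curly skin the quartiles were 3105 and 11476 CPM with a median of 7033 CPM, and 96.9% of the cells had one. The upper quartiles were thus close, while the lower quartile was further down in the straight cells, which were also shallower. Cluster 18 differed more between the libraries, with a median straight cell at 172 CPM and a median curly cell at 5254 CPM. In straight skin 23 of its 40 cells had a KRT6A UMI, and 1 cell held 387 of its 1444 UMIs. Without that cell the straight level of cluster 18 was 2550.0 CPM.

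SHISA2, the receptor-retaining protein, followed another order. In curly skin it was highest in cluster 10, at 160.4 CPM (150.9 to 170.5), followed by cluster 20 at 103 CPM (86.5 to 122) and hair follicle stem-like cluster 8 at 81.9 CPM (71.9 to 93.0). In straight skin cluster 20 was at 185 CPM (136 to 247) and cluster 10 at 158 CPM (140.4 to 177), and these intervals overlapped. Cluster 8 followed at 65.9 CPM (50.4 to 84.7). Cluster 20 is small, with 26 straight and 88 curly cells, and was led by LCN2, IGFBP2, CLDN10, KRT8 and KRT19 with VDR and FGF5 also among its leading genes. In cluster 18 SHISA2 had 4 UMIs in straight skin, which is 9.18 CPM, and 39 UMIs in curly skin, which is 17.5 CPM. These values were 1.4 and 1.43 times the level of the clusters that were not KRT6A-rich, and the interval in straight skin, from -1.4 to 1.85 on the log2 scale, included no difference. High KRT6A in cluster 18 was thus not accompanied by high SHISA2.

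GPX2, the peroxidase, was high in cluster 10 and in differentiating keratinocytes. In cluster 10 the straight level was 1033 CPM (988 to 1080.0) and the curly level 1609.9 CPM (1579 to 1641). Infundibulum and sebaceous duct-like cluster 5 had 665 CPM (644 to 686) and 569.8 CPM (553 to 587), and suprabasal epidermis-like cluster 4 had 256 CPM and 319 CPM. In these 2 clusters KRT6A was far lower than in cluster 10, at 513 and 230.4 CPM in cluster 5 and at 27.3 and 97.3 CPM in cluster 4. In cluster 18 the libraries stood far apart in GPX2, with 73.4 CPM in straight skin (50.2 to 104) and 859 CPM in curly skin (821 to 898). GPX2 in the curly cells of cluster 18 was uneven as well. It was seen in 84 of the 195 cells, the median cell had none, and the highest cell held 139 of the 1915 UMIs.

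PDZRN3, the ubiquitin ligase, was highest in the same 2 clusters as KRT6A. It had 223 CPM in cluster 10 (202 to 245) and 209 CPM in cluster 18 (168 to 256) of straight skin, and these intervals overlapped. In curly skin it had 182 CPM in cluster 10 (172 to 193) and 255 CPM in cluster 18 (235 to 277), which stood apart, so that cluster 18 was the highest. The next levels were 82.5 and 71.4 CPM in cluster 2, 67.1 and 32.1 CPM in cluster 20 and 35.6 and 38.6 CPM in cluster 5. Suprabasal epidermis-like cluster 4, which is high in GPX2, had 2.59 and 8.75 CPM of PDZRN3.

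The share of each gene's UMIs that a cluster held depends on its level, its number of cells and their depth. Clusters 10 and 18 together held 66.2% of the KRT6A UMIs of straight and 90.3% of those of curly skin, from 3.24% and 7.28% of the cells and 4.02% and 11.3% of all UMIs. They held 45.4% and 56.4% of the SHISA2 UMIs, 23.4% and 62.2% of the GPX2 UMIs and 41.7% and 63.9% of the PDZRN3 UMIs. GPX2 of straight skin had the smallest share in these clusters, and cluster 5 alone held 45.9% of it.

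**Figure D2:**
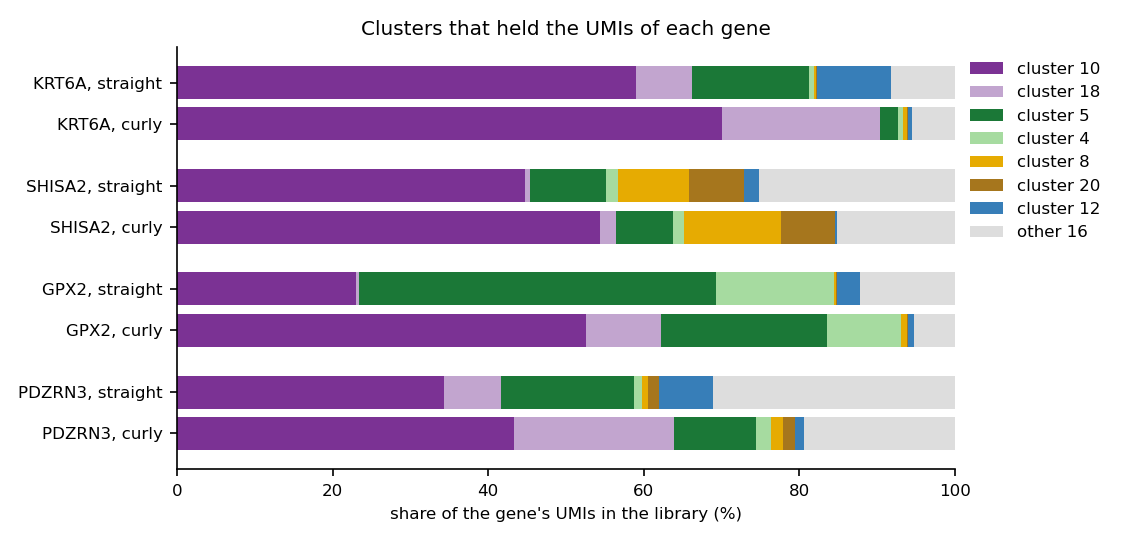
Share of the UMIs of each gene (%, horizontal axis) held by clusters 10, 18, 5, 4, 8, 20 and 12 and by the other 16 clusters together, 1 bar per gene and library. Clusters 10 and 18 hold 90.3% of KRT6A in curly skin, and cluster 5 holds 45.9% of GPX2 in straight skin.

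Single cells were compared after each had been thinned to 2000 UMIs by random draws, which left out 1037 straight and 1533 curly cells with fewer. Over all clusters, cells with a KRT6A UMI more often had a UMI of each of the other 3 genes. SHISA2 was seen in 7.74% of the 517 straight cells with KRT6A and in 1.33% of the 4898 without, and in 11.6% of the 1166 curly cells with it and 2.37% of the 4886 without. GPX2 was found in 31.7% against 8.6% of the straight cells and in 35.5% against 9.37% of the curly cells. PDZRN3 was found in 14.1% against 2.59% and in 14.7% against 2.64%. Dermal papilla-like, endothelial-like and immune-like cells are given for comparison at the same depth, although only for keratins is it known that they should lack the gene. There SHISA2 had a UMI in 0.38% of the straight cells and 0.915% of the curly cells, GPX2 in 2.41% and 3.79%, and PDZRN3 in 1.9% and 1.7%.

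The KRT6A-rich clusters held 34 of the 40 straight cells and 108 of the 135 curly cells with both KRT6A and SHISA2, and 56 of 73 and 146 of 171 with both KRT6A and PDZRN3. For GPX2 they held 80 of 164 straight cells and 308 of 414 curly cells, so that in straight skin 84 cells with both genes lay outside them. Outside these clusters, the share of cells with SHISA2 was 1.49% with and 1.32% without KRT6A in straight skin, a ratio of 1.12 whose log2 interval ran from -1.03 to 1.37. In curly skin it was 3.69% against 2.32%, with a log2 interval of 0.07 to 1.27. GPX2 was found there in 20.8% of straight cells with KRT6A and 8.56% without, a ratio of 2.43 (log2 interval 0.98 to 1.59), and in 14.5% and 9.31% of curly cells, a ratio of 1.56 (log2 interval 0.35 to 0.92). PDZRN3 was seen in 4.21% against 2.39% of straight cells, with a log2 interval of 0.09 to 1.53. In curly cells it was seen in 3.42% against 2.5%, where the interval of the log2 ratio (-0.16 to 1.06) included no difference. Cluster 5 held 42 of the 84 straight cells with KRT6A and GPX2. Within it GPX2 was seen in 51.9% of straight cells with and 50.9% without KRT6A, a ratio of 1.02. Its curly ratio was 1.26. The straight and curly GPX2 ratios were 4.51 and 2.49 in cluster 12, 1.66 and 1.05 in cluster 4, and 1.81 and 1.75 in cluster 8. The log2 interval lay above 0 in straight skin for cluster 12 (1.09 to 3.25) and cluster 4 (0.04 to 1.43). It included no difference in curly skin for cluster 12 (-0.40 to 3.04) and cluster 4 (-0.64 to 0.78). The same held for cluster 8 in straight (-1.22 to 2.92) and curly skin (-0.18 to 1.79). The part of the cluster mix in the pooled ratios was not tested. Outside the KRT6A-rich clusters 404 of 5252 straight cells and 732 of 5565 curly cells had a KRT6A UMI. In dermal papilla-like, endothelial-like and immune-like cells, which should lack KRT6A, 73 of 1579 straight and 101 of 765 curly cells had one. How much of the KRT6A outside the KRT6A-rich clusters is background was not tested, so these ratios are no measure of shared expression. Cells with UMIs of all 4 genes numbered 18 of 5415 in straight skin, and all 18 were in cluster 10. In curly skin they numbered 45 of 6052, of which 43 were in cluster 10, 1 in cluster 18 and 1 in cluster 5.

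Within cluster 10 the share of cells with each of the other genes was highest in the class with most KRT6A. The classes between did not rise evenly in curly skin. With 1 to 2, 3 to 9 and 10 to 19 KRT6A UMIs, SHISA2 was seen in 33.3%, 28.2% and 29.4% of the curly cells. PDZRN3 was seen in 20.8%, 42.3% and 26.5% of them. Among cells without a KRT6A UMI, GPX2 was found in 14.3% of 35 straight cells and 27.6% of 29 curly cells, and among those with 20 or more KRT6A UMIs in 95.2% of 42 straight and 92.8% of 125 curly cells. SHISA2 was seen in 2.86% and 13.8% of the cells without KRT6A and in 47.6% and 36.8% of those with 20 or more UMIs. The intervals of the lowest and the highest KRT6A class were apart for GPX2 in both libraries and for SHISA2 in straight skin, and they overlapped for SHISA2 in curly skin (3.89% to 31.7% against 28.4% to 45.9%). PDZRN3 was seen in 22.9% and 13.8% of the cells without KRT6A, and in 78.6% of straight (63.2% to 89.7%) and 44% of curly cells (35.1% to 53.2%) with 20 or more KRT6A UMIs. In this KRT6A class PDZRN3 was seen less often in the curly cells, with intervals that did not overlap. The class with 3 to 9 KRT6A UMIs went the other way, with PDZRN3 in 1 of 16 straight cells (0.158% to 30.2%) and in 30 of 71 curly cells (30.6% to 54.6%), so that the libraries did not differ in 1 direction. The cells of a library are not replicates, and no test was made.

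Cluster 18 repeated part of this pattern. In its curly cells with 20 or more KRT6A UMIs, GPX2 was seen in 24 of 33 cells, PDZRN3 in 10 of 33 and SHISA2 in 1 of 33. The share with SHISA2, 3.03% (0.0767% to 15.8%), lay below the 36.8% of cluster 10 cells in the same KRT6A class. GPX2 in cluster 18 was seen in 18.2% of cells with 3 to 9 KRT6A UMIs (6.98% to 35.5%) and in 72.7% of those with 20 or more (54.5% to 86.7%). Only 29 straight cells of cluster 18 reached 2000 UMIs, which is too few to divide by KRT6A.

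**Figure D3:**
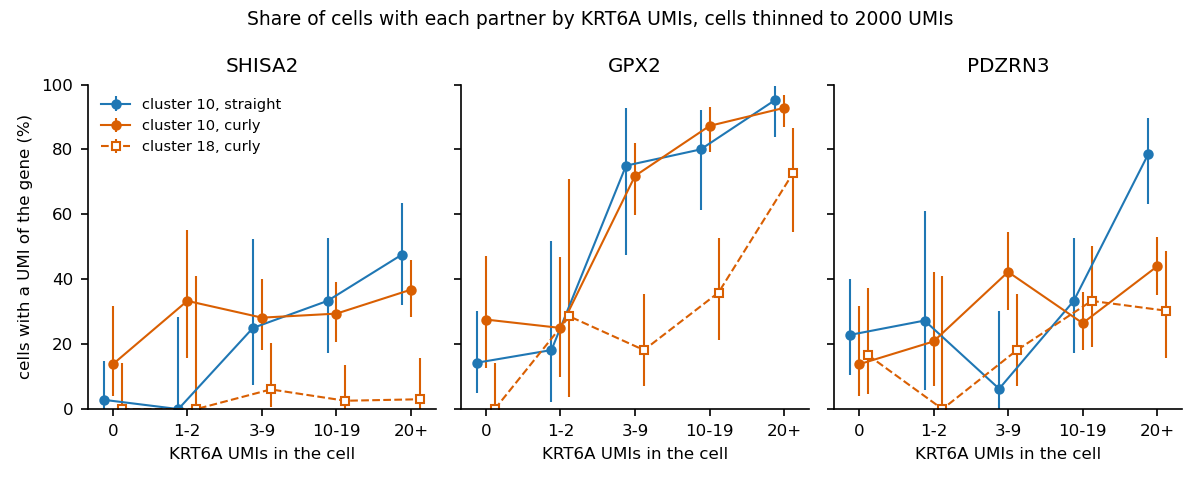
Share of cells (%, vertical axis) with at least 1 UMI of SHISA2, GPX2 or PDZRN3 by the number of KRT6A UMIs in the cell (horizontal axis), after thinning to 2000 UMIs, for cluster 10 of both libraries and cluster 18 of the curly library; bars are 95% Clopper-Pearson intervals. GPX2 goes from 14.3% and 27.6% to 95.2% and 92.8% in cluster 10, and SHISA2 stays at 6.06% or below in cluster 18.

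Straight and curly skin were next compared for the 4 genes. Over all cells KRT6A had 347 CPM in the straight library (342 to 352) and 981 CPM in the curly library (974 to 988), a ratio of 2.83. SHISA2 had 11.5 CPM (10.7 to 12.4) and 24.8 CPM (23.7 to 25.9), a ratio of 2.15. GPX2 had 147 and 257 CPM, a ratio of 1.75, and PDZRN3 had 21.2 and 35.4 CPM, a ratio of 1.67. All 4 were higher in the curly library, and 2 of 4 were at least 2-fold higher. SHISA2 was not at least 2-fold higher when CPM were averaged over cells, with a log2 ratio of 0.80, and its interval began at 1.97-fold. Of the 13196 genes with at least 100 UMIs over both libraries, 3.24% were at least 2-fold higher in curly and 6.9% at least 2-fold lower, and the median gene was at -0.18 on the log2 scale.

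The libraries also differed in the share of KRT6A-rich cells. Cluster 10 held 2.62% of the straight cells and 4.71% of the curly cells, and cluster 18 held 0.62% and 2.57%. With 1 library each, the mixing of follicle and whole-skin cells and the animals pooled cannot be told apart from the wool type. When the curly cells were weighted so that every cluster held the share of UMIs it has in the straight library, the log2 ratio of KRT6A went from 1.5 to 0.33, that of SHISA2 from 1.11 to 0.42, that of GPX2 from 0.81 to 0.2 and that of PDZRN3 from 0.74 to 0.03. This weighting was chosen after the data had been seen.

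Within cluster 10 none of the 4 genes differed 2-fold between the libraries. Of the 4846 genes with at least 100 UMIs there, 1.65% were at least 2-fold higher in curly and 4.83% at least 2-fold lower, and the median gene was at -0.26. GPX2 was 1.56 times as high in curly cells, a log2 ratio of 0.64 (0.57 to 0.71), and KRT6A was 1.3 times as high, a log2 ratio of 0.38 (0.35 to 0.41). SHISA2 had 158 and 160.4 CPM, a log2 ratio of 0.02 whose interval (-0.16 to 0.21) included no difference. PDZRN3 was lower in curly cells, with a log2 ratio of -0.29 (-0.45 to -0.12) that lay close to the median gene. The curly cells of cluster 10 were deeper, with a median of 19056 against 10207 UMIs, and the part of this gap in the ratios was not tested.

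In cluster 18, 2 of the 3 genes with enough UMIs were at least 2-fold higher in the curly library. The curly level was 2.09 times the straight level for KRT6A and 11.7 times for GPX2, with a log2 ratio of 3.55 (3.04 to 4.1). Of the 2425 genes with at least 100 UMIs there, 8.7% were at least 2-fold higher in curly and 3.55% at least 2-fold lower. PDZRN3 had a log2 ratio of 0.29 (-0.03 to 0.62). SHISA2, with 43 UMIs in all, was below the 100 UMIs needed. The 5 genes most like GPX2 over clusters did not share this difference as a group. In cluster 18 LOC101112509 had 50.5 CPM in the straight and 729 CPM in the curly library, against 32.7 and 37.1 CPM outside the KRT6A-rich clusters. CST6, a protease inhibitor, had 1226 and 10212 CPM, but was also higher in curly skin outside, with 4375 and 13192 CPM. SBSN had 4551 and 6171 CPM in cluster 18, while GSTA1, with 36.7 and 29.1 CPM, and LOC101114665, with 6.89 and 4.48 CPM, were not higher. The straight value of GPX2 rests on 32 UMIs in 40 cells, 11 of them in 1 cell.

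Outside clusters 10 and 18 the genes went different ways. Pooled over these clusters, KRT6A had a log2 ratio of -0.19 (-0.24 to -0.14), about that of the median gene over all cells, and GPX2 had -0.09 (-0.14 to -0.05). The pooled KRT6A value did not describe most clusters. KRT6A was higher in curly skin in 18 of the 21 clusters, in 14 of them with an interval above 0, and the 2 with an interval below 0 were cluster 5, at -1.15, and cluster 12, at -0.74. The clusters with higher levels include dermal papilla-like cluster 7, at 2.52, and other cells that should lack KRT6A. SHISA2 was 1.86 times as high, with 6.56 against 12.2 CPM and a log2 ratio of 0.89 (0.72 to 1.08). Hair follicle stem-like cluster 11 had 18.7 and 60.1 CPM of SHISA2, while cluster 8, of the same name, had 65.9 and 81.9 CPM with overlapping intervals. Cluster 20, among the highest in SHISA2, was lower in curly skin, with 185 and 103 CPM and a log2 ratio of -0.85 (-1.33 to -0.33), as was sebaceous-like cluster 22, with 28 and 2 UMIs. Cluster 8 held 3.44% of the straight cells and 6.97% of the curly cells, and the part of that share in the ratio was not tested.

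**Figure D4:**
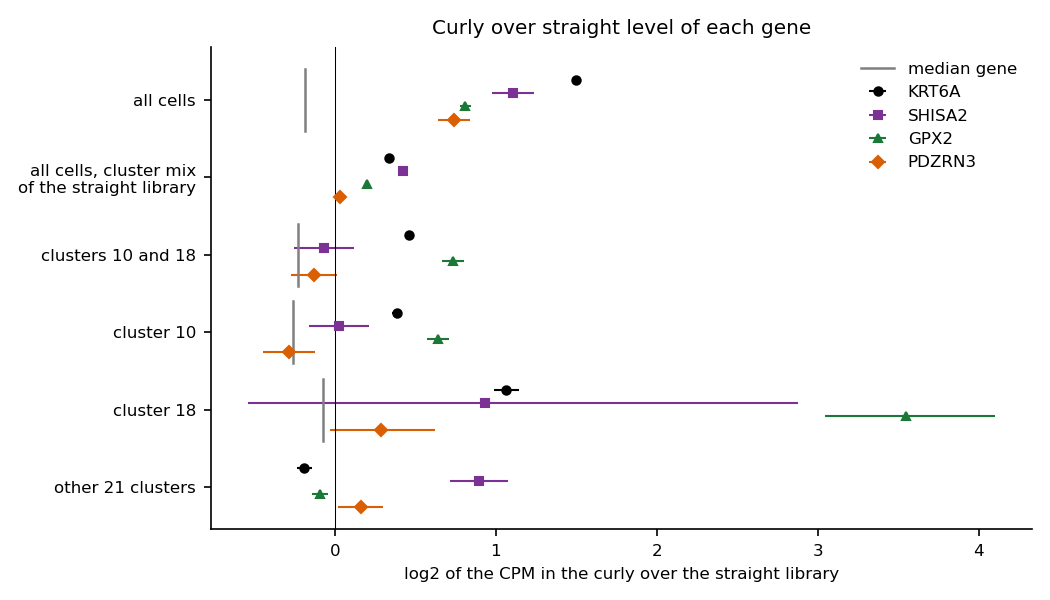
log2 ratio of the CPM in the curly over the straight library (horizontal axis) for the 4 genes over all cells, over all cells with the cluster mix of the straight library, in clusters 10 and 18 together and apart, and in the other 21 clusters; bars are 95% intervals of the binomial split of the UMIs, the row of the weighted mix has none, and grey lines mark the median gene where it was computed. KRT6A goes from 1.5 over all cells to 0.33 with the straight mix, and GPX2 in cluster 18 lies at 3.55.

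Part of the KRT6A signal was found in cells that should not make it. In dermal papilla-like, endothelial-like and immune-like cells together, KRT6A had 23.04 CPM in the straight library and 101 CPM in the curly library, and 11.2% and 26% of these cells had a UMI, at median depths of 5315 and 4084 UMIs. Those levels are 6.64% and 10.3% of the level of the whole library, and 6.15% and 8.84% without the single highest cell. KRT5 stood at 7.61% and 15% of its library level in the same cells, KRT14 at 7.97% and 12.2%, and KRT17 at 7.5% and 14.5%. KRT6A thus lay below these 3 keratins, and KRT71, the inner root sheath keratin, stood higher at 26.8% and 21.6%. Whether the KRT6A level of these cells is background was not tested. In immune-like cluster 13 of curly skin, 57 of the 89 KRT6A UMIs came from 1 cell, and the level was 101 CPM without it.

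Among the other 3 genes the same cells had 2.98 and 7.65 CPM of SHISA2, 14.3 and 21.5 CPM of GPX2, and 10.1 and 9.73 CPM of PDZRN3. These are 25.8% and 30.8% of the library level for SHISA2, 9.75% and 8.37% for GPX2, and 47.5% and 27.5% for PDZRN3. It is not known that these cells should lack the 3 genes, and whether the levels are background was not tested. The straight UMIs of PDZRN3 there lay mostly in the dermal papilla-like clusters, which had 101 of 105 UMIs, and endothelial-like cluster 14 had 2. Over all clusters 24.7% of straight and 45.4% of curly cells had a KRT6A UMI, and these include cells that should lack the gene. At 2000 UMIs the share was 9.55% and 19.3%, against 4.62% and 13.2% in the cells that should lack KRT6A.

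The genes whose levels were most like KRT6A over clusters were sought among 11475 genes with at least 100 UMIs in each library, by the Pearson correlation of log2(CPM + 1) over 44 points, each a cluster of at least 25 cells in 1 library. The points share the clustering and, within a library, its depth and free RNA, so the coefficients are descriptions. PDZRN3 had rank 3 among all genes with r = 0.83 and GPX2 rank 6 with r = 0.79, while SHISA2 had rank 280 with r = 0.51. These 3 genes were chosen from the same libraries as genes that accompany KRT6A, so high ranks follow from that choice. Without the 2 KRT6A-rich clusters, r over 40 points was 0.62 for PDZRN3, 0.67 for GPX2 and 0.37 for SHISA2. Each library alone gave 0.81 and 0.89 for PDZRN3 and 0.76 and 0.83 for GPX2.

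The first place went to ATP6V1B1, a subunit of the proton pump of vesicles and of acid-secreting cells, with r = 0.84. It had 716 and 641 CPM in cluster 10, 695 and 804 CPM in cluster 18 and 65.7 and 63.7 CPM in the other clusters. CDHR2, a protocadherin known from the microvilli of the brush border, followed with r = 0.84 and with 30.1 and 20.99 CPM in cluster 10 against 0.935 and 0.973 CPM in the other clusters. VAX2, a homeobox factor known from the eye, had r = 0.83, and MAT1A, which makes S-adenosylmethionine and is best known from the liver, had r = 0.81. MAT1A was higher in cluster 18, at 57.4 and 96.8 CPM, than in cluster 10, at 37.5 and 39.1 CPM, and had 0.485 and 1.6 CPM in the other clusters. RAB15, LOC101112509, the keratinocyte exonuclease TREX2 and LOC101108147 completed the first 10, with r from 0.78 down to 0.74.

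The other genes had partly different companions. SHISA2 was most like LGR5, the receptor that marks hair follicle stem cells, with r = 0.79, or 0.85 without clusters 10 and 18, and next came SESN1, TF, LRIG1 and ENTPD2. LRIG1, a brake on EGF receptors, also marks follicle stem cells. LGR5 itself was highest in cluster 8 in both libraries and had 18.997 and 9.81 CPM in cluster 10 against 12.9 and 20.1 CPM in the other clusters, so that cluster 10 was high in SHISA2 but not in LGR5. GPX2 was most like SBSN, the suprabasal protein suprabasin, with r = 0.87, then CST6, LOC101112509, the glutathione transferase GSTA1 and LOC101114665. PDZRN3 was most like CDHR2, with r = 0.87, then KRT6A, the proteasome subunit PSMD3, MAT1A and LOC101108147.

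**Figure D5:**
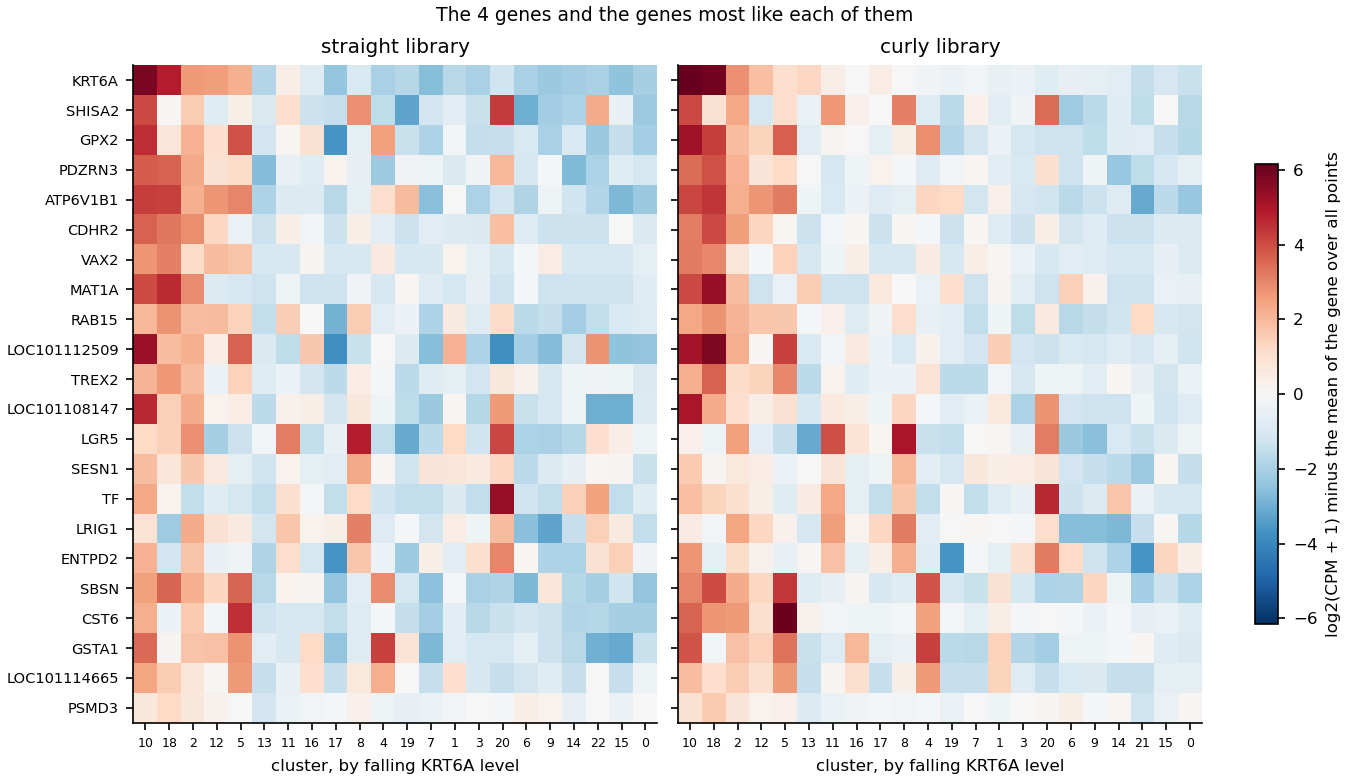
Level of the 4 genes and of the genes most like each of them (rows) in each cluster of at least 25 cells (columns, by falling KRT6A level) of the straight and the curly library, coloured by log2(CPM + 1) minus the mean of the gene over all 44 points. Most genes like KRT6A are raised in clusters 10 and 18, those like SHISA2 in cluster 8 or 20, and those like GPX2 in clusters 5 and 10.

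Neighbouring keratin genes were read with KRT6A, since genes of this family are near copies and reads could be divided between them. In the RefSeq gene order of assembly ARS-UI_Ramb_v3.0, 5 genes lie between KRT6A and KRT82, and 4 of these have a row in the table. LOC101112555 had 5939.8 CPM in the straight and 1752 CPM in the curly cells of cluster 18, against 85.5 and 36.9 CPM in cluster 10. Cluster 18 held 2588 of its 3484 UMIs in straight and 3908 of 5543 in curly skin. LOC101111178 had 190.1 CPM in cluster 18 of curly skin and no UMI in that cluster of straight skin, where 3 UMIs would be 6.89 CPM. LOC101111440 was highest in hair shaft-like cluster 6, and LOC114113976 had 3 UMIs in all. In the type I keratin array, LOC101108147 lies between KRT14 and KRT17, and it had 197 and 260.2 CPM in cluster 10, 20.7 and 37.7 CPM in cluster 18 and 5.45 and 7.33 CPM in the other clusters. Whether any of these LOC genes is KRT75, KRT6B or KRT16 is not known here. The KRT6A values are uncertain to the extent that its reads were shared with such neighbours.

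Related genes were taken from 4 lists, and a gene was counted when its level in a cluster was at least 2-fold above or below the clusters that are not KRT6A-rich in both libraries. Of the 11475 genes with enough UMIs, 2.44% were counted as higher and 17.6% as lower in cluster 10, and 4.85% and 17.6% in cluster 18. Of the 4 genes themselves, all 4 were higher in cluster 10, which follows from their choice, and KRT6A and PDZRN3 in cluster 18. Among 9 companion layer and activated keratin genes, 5 had a row, and 4 of 4 with enough UMIs were higher in cluster 10 and 3 of 4 in cluster 18, with median log2 ratios of 2.29 and 1.98 against -0.45 and -0.32 for all genes. These genes were KRT5, KRT14, KRT17 and GJB6, and their high levels were not particular to the KRT6A-rich clusters. KRT5 and KRT17 were highest in cluster 12 in both libraries. The companion layer markers KRT17, GJB2 and GJB6 summed to 38988 and 41637 CPM in cluster 12. They summed to 13095 and 13555 CPM in cluster 10 and to 36268 and 16168 CPM in cluster 18. GJB6, the gap junction protein connexin 30, had 564 and 680 CPM in cluster 10, 778 and 481 CPM in cluster 18 and 105 and 96.2 CPM in the other clusters. KRT14, the basal keratin, had 30844 and 34890 CPM in cluster 10 against 5298 and 3991 CPM in the other clusters, and it was not counted in cluster 18, where it had 8439 and 25347 CPM.

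Of 15 glutathione peroxidases and genes of the NRF2 pathway, the main oxidant response, 1 was higher and 4 were lower in each KRT6A-rich cluster. The median log2 ratios, -0.42 in cluster 10 and -0.36 in cluster 18, lay close to the -0.45 and -0.32 of all genes. PRDX1, a peroxiredoxin that removes hydrogen peroxide, was the higher gene in cluster 10, with 1132 and 1283 CPM against 558 and 424 CPM. GPX4, which protects membrane lipids, was the higher gene in cluster 18, with 461 and 632 CPM against 225 and 248 CPM. GPX7, GPX8, the haem oxygenase HMOX1 and the thioredoxin reductase TXNRD1 were the lower genes in cluster 10. In cluster 18 the lower genes were GPX7, GPX8, GCLC, which makes the glutathione precursor, and NFE2L2, which encodes NRF2 itself.

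In the list of SHISA proteins and the receptors that the family holds back, 2 of 13 were higher and 5 lower in cluster 10, and 3 higher and 3 lower in cluster 18. SHISA4, a relative of SHISA2, had 66.0 and 65.9 CPM in cluster 10, 91.8 and 78.9 CPM in cluster 18 and 18.7 and 20.4 CPM in the other clusters. The receptor FZD6 had 82.8 and 74.9 CPM in cluster 10 against 23.5 and 23.8 CPM. FGFR1 and FGFR2 were lower in both KRT6A-rich clusters, with log2 ratios from -2.17 to -2.56 in cluster 10. FZD1, FZD4 and FZD10 were the other lower genes of cluster 10, and FZD2 and FZD3 were the other higher genes of cluster 18, where SHISA5 was the other lower gene. Of the PDZRN and LNX ligases and the Dishevelled genes, none of 4 with enough UMIs passed 2-fold in either cluster, with median log2 ratios of -0.16 and -0.02. PDZRN4, the nearest relative of PDZRN3 in the list, and LNX1 had no UMI in either KRT6A-rich cluster of either library.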

How the data were processed

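The deposited table gives, per the file headers and values, 1 column for each cell and natural log values, ln(1 + UMIs per 10000 of the cell), made by the authors from Cell Ranger output (version 3.0.2 in the submitters' processing notes, another version in the methods of the study) on Oar_rambouillet_v1.0. It holds fewer cells than the study counts after its quality control. UMI counts were recovered from the smallest value of each cell: 100% of 28552149 values above 0 were whole within 0.01. Counts had been foreseen as the unit, and the recovered counts were used without a count model, since each wool type has 1 library.

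Cells were integrated and clustered in Seurat 5.3.0 (1996 variable genes, 30 dimensions, resolution 0.4) without the 4 genes. Scrublet in scanpy 1.11.5 called 0.427% of cells doublets, a share too low to rely on, and no cells were removed in the values reported. No cell in the table has more than 3999 genes, and whether this upper end had already taken out doublets was not tested. CPM of summed UMIs have exact Poisson intervals, shares Clopper-Pearson intervals, and ratios the interval of the binomial split; intervals and floors of 3 UMIs cover counting error only, and PCR copies are already merged in UMIs. Cells were thinned to 2000 UMIs. Names such as "immune-like" needed a mean log2 fold of at least 1.5 over the listed markers (pseudocount of 5 CPM), at least 3 of them seen in 10% of cells, and more of them than of any other list among the 10 leading genes, unless no list had any there. A cluster with a median depth far below that of the libraries was left unnamed when none of its markers was a leading gene. This applied to cluster 21, with a median of 1748 UMIs. The genes named are the 4 genes, the genes most like each (10 for KRT6A, 5 for the others), 4 gene lists and the cell type markers; leading genes of clusters and keratin neighbours were added after their values were seen. The 4 genes and all lists were chosen with earlier results of these data known. MAL and KRT14 were matched by gene ID. Functions were tested on simulated data.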

Additional observations from a re-analysis of the deposited data

How the results depend on the processing

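All values here are log2 ratios, and where a value moved, the cause was not tested. No paired analysis was possible because each wool type has 1 library. With 1 library each, a library could not be left out and no spread between animals is known; cluster 18 of straight skin, with 40 cells, limits what can be said of it. The planned search of promoters was not run. Doublet removal took the highest 6% of scores, 820 cells. Of 104 planned values, 50 moved by less than their counting interval, 51 moved by more and 3 changed sign; of 16 added after seeing the data, 1, 14 and 1 did. In every clustering 2 clusters were KRT6A-rich.

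For curly over straight in all cells, KRT6A, SHISA2, GPX2 and PDZRN3 had 1.06, 0.80, 0.57 and 0.41 as means of per-cell CPM, 1.68, 1.29, 0.99 and 0.92 with median-of-ratios scaling, and 0.33, 0.42, 0.20 and 0.032 with the straight cluster mix. KRT6A had 1.54 in cells with at least 1500 genes and 1.45 without doublets.

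For KRT6A-rich over other clusters, KRT6A in straight skin had 5.64 without integration, 5.45 with at least 1500 genes, 5.76 without doublets and 5.68 in cluster 10 alone. In curly skin it had 6.27 at resolution 0.8, 6.29 with the 4 genes kept for clustering, 6.25 without integration, 6.45 with at least 1500 genes, 6.48 without doublets, 5.06 per cell and 6.26 in cluster 10. SHISA2 had 4.71 without integration, 4.05 per cell and 4.59 in cluster 10 of straight skin, and 3.50 without doublets, 2.78 per cell and 3.72 in cluster 10 of curly skin. GPX2 had 3.04 without integration, 2.73 with at least 1500 genes, 3.01 without doublets, 3.22 per cell and 3.14 in cluster 10 of straight skin, and 3.80 without doublets, 3.49 per cell and 3.87 in cluster 10 of curly skin. PDZRN3 had 4.36 per cell in straight skin, and 3.93 without doublets and 3.66 in cluster 10 of curly skin.

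For curly over straight in KRT6A-rich clusters, KRT6A had 0.20 without integration, 0.55 with at least 1500 genes, 0.32 without doublets, 0.14 per cell, 0.64 with median-of-ratios scaling and 0.38 in cluster 10. GPX2 had 0.52, 0.84, 0.66, 0.38, 0.92 and 0.64 in the same order. SHISA2 had -0.44 without integration and -0.39 per cell, and changed sign to 0.083 with at least 1500 genes, 0.12 with that scaling and 0.024 in cluster 10. PDZRN3 had -0.29 without integration, -0.43 per cell and -0.29 in cluster 10, and changed sign to 0.053 with that scaling.

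For the share with a partner in cells with over cells without KRT6A, thinning to 4000 UMIs gave 1.83 and 1.87 for SHISA2, 1.34 and 1.23 for GPX2, and 1.55 and 2.12 for PDZRN3 in straight and curly skin.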
